A study of Mus musculus with 20 samples.

Results

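Active distal elements are taken here as stretches of open chromatin away from promoters that carried the acetylation mark H3K27ac in WT cells of the Nkx2.1 lineage. They were selected from the consensus ATAC-seq regions that the authors deposited, by asking for an annotation other than promoter, an overlap of at least 1 bp with an H3K27ac peak in both WT libraries, and no H3K27me3 peaks in both WT libraries. In total, 4924 of 32120 consensus regions met this rule, which is 15.3% of all regions and 27.04% of the 18211 regions outside promoters. A further 419 distal regions carried H3K27ac in both WT libraries but were left out because H3K27me3 was also present in both. The remaining 13287 regions outside promoters are called other distal regions below. Because WT H3K27ac and H3K27me3 chose the elements, both marks are described without a test.

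Distal elements regulate genes from a distance, through DNA sequences that are bound by transcription factors in open chromatin. H3K4me1 is deposited at distal elements whether or not they are in use, H3K27ac marks those that are active, and H3K27me3 is the mark of Polycomb repression. Tcf4 is a basic helix-loop-helix factor, one of the E proteins, which bind the E-box CANNTG as dimers with each other or with cell type-specific partners such as Olig2, and which are held off DNA by Id proteins. In the postnatal brain these partners act in oligodendrocyte precursor cells (OPCs), in interneurons and in their progenitors.

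WT animals carried Nkx2.1-Cre and Tcf4 cKO animals carried Tcf4f/f with Nkx2.1-Cre. Both genotypes carried the Cre-dependent reporter Ai3, so that cells of ventral, Nkx2.1-expressing progenitors and their progeny were labelled, and both therefore carried the driver. GFP-positive cells were sorted from the neocortex at postnatal day 7 or 8, and 50000 cells went into each library. ATAC-seq, in which a transposase cuts accessible DNA, and Cut&Tag, which inserts adapters next to an antibody-bound mark, each had 2 libraries per genotype. Occupancy of Tcf4 was measured by anti-Flag Cut&Tag on 200000 nuclei per library (2 libraries) in the Tcf4-tag line, where endogenous Tcf4 carries a Flag/HA tag once Nkx2.1-Cre has acted. The Tcf4-tag line carries tagged Tcf4 in place of a deletion and has no library without the tag here. The number of animals in a library is not given in the sources used here, so the spread between 2 libraries may be technical in part. The sorted cells were a mixture of glia and interneurons of one lineage, in which fewer cells with an open or acetylated element cannot be told apart from a lower level in each cell.

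Peak numbers differed between the libraries and move with several results below. The H3K27ac lists held 28413 and 24477 peaks in WT and 26644 and 22026 in Tcf4 cKO. The H3K4me1 lists held 51510 and 59526 peaks in WT and 72790 and 65049 in Tcf4 cKO. The Tcf4 libraries held 28606 and 16834 peaks, and ATAC-seq lists held between 54162 and 72308. Read numbers are unknown, and with 2 libraries against 2 an exact two-sided permutation test of one value cannot go below p = 0.33.

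The sequences of 7 elements are shown first, because E-boxes, the letters that Tcf4 can bind, can be read in them directly. Each is the middle of the element, 75 bases to either side of its central base, on the plus strand of GRCm38 (mm10), read from the RefSeq copy of that assembly, with every CANNTG in capitals. The first 4 are the elements with the highest WT H3K27ac near a gene of the OPC, myelin, astrocyte and interneuron lists. The element of Tcf7l2, a transcription factor of committed oligodendrocyte precursors, lay at chr19:56029556-56029706 and held 2 E-boxes, both CACGTG. That of Mog, a protein of the myelin surface, lay at chr17:37028778-37028928 and held 2 E-boxes, CATCTG and CACCTG. The windows of Slc1a3, the astrocyte glutamate transporter, at chr15:8629439-8629589 and of Maf, a transcription factor of cortical interneurons, at chr8:115943229-115943379 held none.
Tcf7l2: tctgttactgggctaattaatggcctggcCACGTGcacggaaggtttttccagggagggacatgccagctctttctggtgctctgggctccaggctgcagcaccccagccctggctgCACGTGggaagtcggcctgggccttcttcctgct
Mog: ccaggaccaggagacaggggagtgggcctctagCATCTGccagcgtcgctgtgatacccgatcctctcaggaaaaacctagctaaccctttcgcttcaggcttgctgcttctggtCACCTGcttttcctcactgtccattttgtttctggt
Slc1a3: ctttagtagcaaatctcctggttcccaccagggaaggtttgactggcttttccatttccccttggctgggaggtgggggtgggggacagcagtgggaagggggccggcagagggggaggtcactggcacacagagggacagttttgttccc
Maf: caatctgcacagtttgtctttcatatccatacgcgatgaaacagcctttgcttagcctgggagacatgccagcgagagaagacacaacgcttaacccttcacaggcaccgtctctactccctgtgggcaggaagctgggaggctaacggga

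The other 3 had a large fall or rise of the authors' mean ATAC-seq signal in Tcf4 cKO. The element with the largest fall, near Bmf, a pro-apoptotic protein, lay at chr2:118554731-118554881 and held 1 E-box, CATGTG. Those near the predicted gene Gm11449 at chr2:161511745-161511895 and in an intron of Gli2, a transcription factor of the Hedgehog pathway, at chr1:119033972-119034122 had the largest rises and held no E-box. The element with the next largest fall, near Nostrin, lies in the 3′ UTR of Cers6 and its sequence is not shown.
Bmf: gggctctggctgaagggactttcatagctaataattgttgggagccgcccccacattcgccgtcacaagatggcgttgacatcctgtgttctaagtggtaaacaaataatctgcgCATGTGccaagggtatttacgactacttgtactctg
Gm11449: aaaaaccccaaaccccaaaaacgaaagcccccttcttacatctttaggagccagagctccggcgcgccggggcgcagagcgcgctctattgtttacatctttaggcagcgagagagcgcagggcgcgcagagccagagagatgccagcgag
Gli2: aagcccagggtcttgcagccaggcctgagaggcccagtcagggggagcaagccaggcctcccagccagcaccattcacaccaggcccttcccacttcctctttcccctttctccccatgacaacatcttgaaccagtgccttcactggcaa

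The elements were mostly intergenic or intronic. The authors' annotation placed 45.6% in distal intergenic sequence, 43.0% in introns and 6.07% in exons, against 43.8%, 43.9% and 6.12% of the other distal regions. Their median distance to the nearest protein-coding start site of GENCODE M21 was 35130 bp, and 79.6% lay over 10000 bp away. They were wider than the other distal regions, with a median of 997 bp against 778 bp, which leaves more room for an overlap with any peak. They were also more open, with a median of the authors' WT mean of 7.18 log2 normalized reads against 6.08. They lay farther from each other than the other distal regions did, with a median gap of 219176 bp against 72242 bp, in a set of fewer regions. They were spread over 3790 nearest genes, of which 3037 had a single element and 17 had at least 5.

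At the threshold of the rule, the elements just inside had H3K27ac peaks that were barely called. The element near Fzd7, a Wnt receptor, had a −log10 q of 3.54 in WT replicate 1 and of 1.37 in WT replicate 2. Just outside lay a region near Tenm4, a teneurin of the cell surface, with a −log10 q of 13.1 in WT replicate 1 and no peak in WT replicate 2. In all, 4464 other distal regions had H3K27ac in exactly 1 WT library. Of the elements, 1579 (32.1%) reached a −log10 q of at least 5 in both WT libraries. H3K27me3 was present in 1 of the 2 WT libraries at 595 elements (12.1%).

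The 5 elements with the highest WT H3K27ac lay near Flt1, Gm13618, Platr25, Zfp873 and Gm24192. The element in an intron of Flt1, a receptor for vascular endothelial growth factor, had fold enrichments over the local background of 13.7 and 15.7 in WT and of 16.2 and 15.1 in Tcf4 cKO. It was 441 bp wide, and its enrichment was as high in H3K4me1 (16.1 and 15.1 in WT) and higher for Tcf4 (20.98 and 23.4). The element near the predicted gene Gm13618 was 461 bp wide and was alike, with H3K27ac of 10.3 and 13.5 in WT and Tcf4 of 20.9 and 23.0. These 2 elements were therefore high in every narrow-peak assay and not in H3K27ac alone. No list of regions prone to artefacts was applied, and whether these 2 would be on one was not tested. The other 3 had geometric mean WT enrichments of 9.21 (Platr25), 8.67 (Zfp873, a zinc finger protein) and 8.36 (Gm24192), and kept H3K27ac peaks in both Tcf4 cKO libraries.

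H3K4me1 was found at most active elements in every library. A peak was present at 79.2% and 84.4% of the elements in WT replicates 1 and 2, and at 88.9% and 87.3% in Tcf4 cKO replicates 1 and 2. The other distal regions had 58.1% and 65.5% in WT and 71.8% and 68.1% in Tcf4 cKO, so each library had more H3K4me1 at the active elements. Both WT libraries had a peak at 72.7% of the elements (95% Wilson interval 71.5 to 74.0) and both Tcf4 cKO libraries at 81.8% (80.7 to 82.9), where the intervals cover counting over regions only. No H3K4me1 peak was found in any of the 4 libraries at 162 elements (3.29%), against 13.2% of the other distal regions.

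The higher share in Tcf4 cKO moved with the number of peaks. When only the 51510 strongest peaks by −log10 q were kept in every H3K4me1 library, both WT libraries had a peak at 70.5% of the elements and both Tcf4 cKO libraries at 70.4%. With all peaks, 130 elements (2.64%) gained H3K4me1, with peaks in both Tcf4 cKO libraries and no WT library, where the same was seen at 5.42% of all consensus regions. Only 40 elements (0.812%) showed the opposite pattern, against 0.95% of all regions. The share with a gain lay under that of all regions, but only regions without WT H3K4me1 could gain it. Neither WT library had a peak at 452 elements (9.18%), so nothing about a lower rate of gain can be read from this background. The opposite pattern needed H3K4me1 in both WT libraries, which 72.7% of the elements and 49.0% of all regions had. The Wilson interval of its share over the elements, 0.597% to 1.10%, covered the share of all regions.

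**Figure D1:**
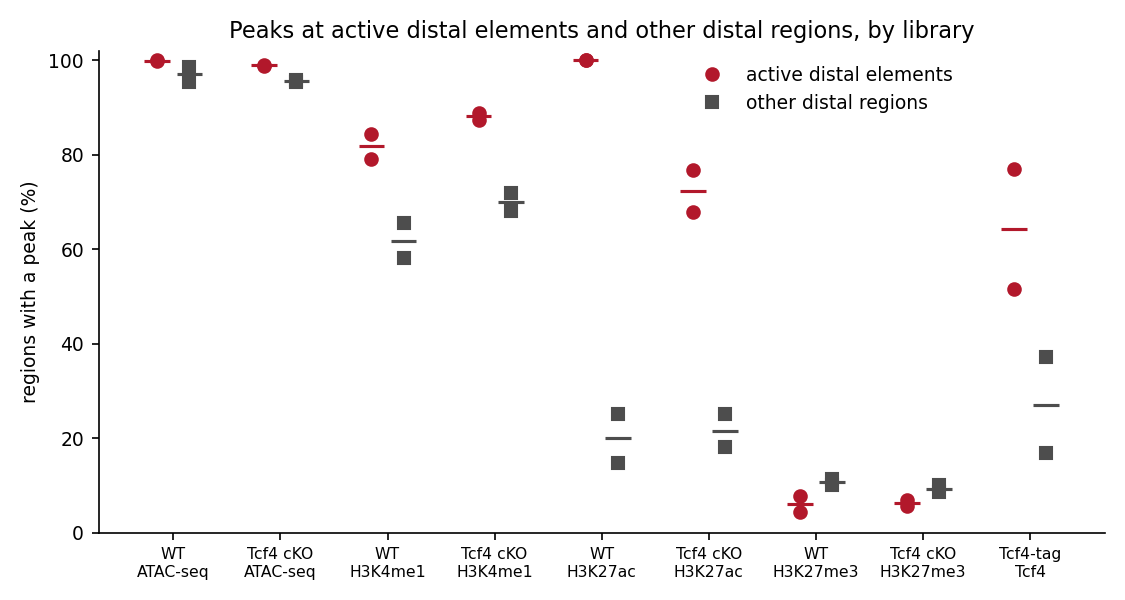
Share of regions with a peak, in percent, for active distal elements (circles) and other distal regions (squares) in each library, with the mean of 2 libraries as a line. H3K4me1 and Tcf4 were more frequent at the active elements in every library, and WT H3K27ac is 100% because the rule required it.

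H3K4me1 enrichment at the elements was alike in both genotypes. Over the 3301 elements with a peak in all 4 libraries, the median fold enrichment was 4.25 and 4.38 in WT and 4.24 and 4.29 in Tcf4 cKO, so the genotypes overlapped. By limma with Benjamini-Hochberg adjustment over 14029 regions with a peak in all 4 libraries, no element was called at an adjusted p under 0.05, as was the case for 0.0% of all regions. At an unadjusted p under 0.05, 133 elements (4.03%) were lower and 117 (3.54%) higher in Tcf4 cKO, against 3.93% and 3.51% of all regions, which is the background. After centring each library on its median, both Tcf4 cKO libraries lay under both WT libraries at 630 elements (19.1%) and over them at 583 (17.7%), against 18.1% and 18.1% of all regions.

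H3K27ac peaks of any strength were found again in Tcf4 cKO at most elements. A peak was present at 76.7% of the elements in Tcf4 cKO replicate 1 and at 67.9% in replicate 2, a mean of 72.3% ± 6.22 (SD, n = 2). Both libraries had a peak at 2966 elements (60.2%), 1 library at 1185 (24.1%) and neither at 773 (15.7%). The share with a peak in both fell to 23.6% where Tcf4 cKO peaks needed a −log10 q of at least 5, and to 30.4% where they had to span 50% of the element. A loss of this kind was seen at 3.55% of all consensus regions, a background from which nothing can be read here because only regions with WT peaks could lose them. Over the 2966 elements with peaks in all 4 libraries, the median fold enrichment was 4.41 and 4.34 in WT and 4.41 and 4.23 in Tcf4 cKO.

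Peak calls were shared slightly more often within a genotype than between genotypes once peak numbers were equal. Over all regions outside promoters and with the 22026 strongest peaks of every library, 66.1% of the regions with a peak in WT replicate 1 had one in WT replicate 2, while 63.1% and 61.2% had one in the Tcf4 cKO libraries. From WT replicate 2 these shares were 68.4% within WT and 62.4% and 61.0% in Tcf4 cKO. From Tcf4 cKO they were 68.5% and 70.0% within the genotype and between 65.1% and 68.2% in WT. The same rule applied to Tcf4 cKO in place of WT gave 4246 elements, of which 71.1% had H3K27ac in both WT libraries and 7.96% in neither. With equal peak numbers, 61.8% of 3846 elements active in WT had H3K27ac in both Tcf4 cKO libraries, and 63.8% of 3789 elements active in Tcf4 cKO had it in both WT libraries. The 2 directions were thus closer with equal peak numbers, and no test of the difference was made. In all, 2869 elements met the rule in both genotypes, which is 58.3% of those active in WT and 67.6% of those active in Tcf4 cKO.

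**Figure D2:**
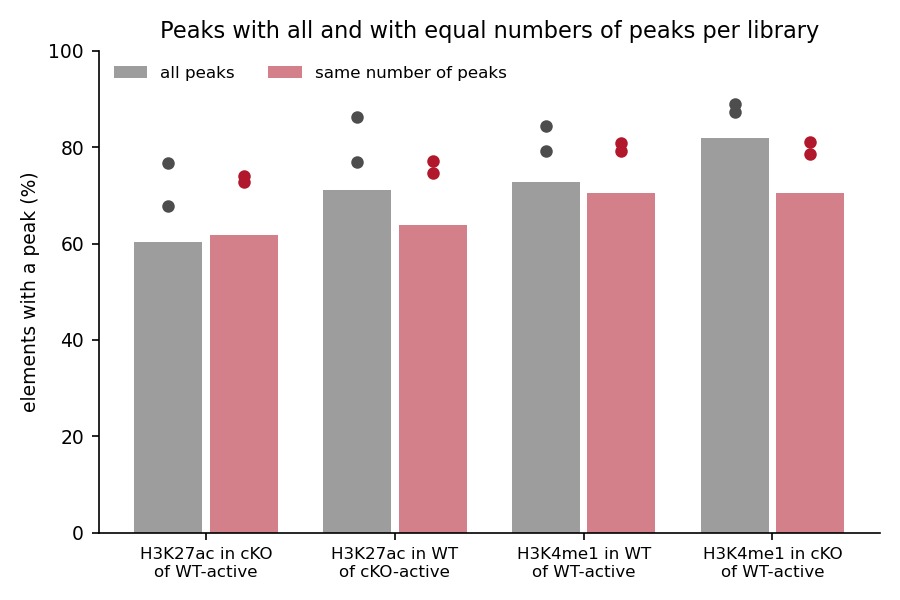
Share of elements with a peak in both libraries (bars) and in each library (points), in percent, with all peaks and with the same number of peaks per library. The left pair shows H3K27ac in the opposite genotype for elements active in WT or in Tcf4 cKO, and the right pair H3K4me1 at elements active in WT, where 72.7% and 81.8% became 70.5% and 70.4%.

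Elements with strong WT H3K27ac kept it more often. When the elements were split into quartiles of WT enrichment, 51.8% of the lowest quartile (2.35- to 3.81-fold) had H3K27ac in both Tcf4 cKO libraries, followed by 54.8%, 59.4% and 74.9% in the highest (4.83- to 14.7-fold). Neither Tcf4 cKO library had a peak at 21.8% of the lowest and 8.61% of the highest quartile. WT H3K4me1 followed the same order, from 52.9% of the lowest quartile with a peak in both WT libraries to 85.8% of the highest. Since the quartiles were cut on WT H3K27ac, this order is a description.

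H3K27me3 stayed rare at the elements. A broad peak was present at 4.37% and 7.72% of the elements in WT and at 6.86% and 5.65% in Tcf4 cKO, so the genotypes overlapped. The other distal regions had 10.0% and 11.3% in WT and 10.0% and 8.67% in Tcf4 cKO. Both Tcf4 cKO libraries had H3K27me3 at 134 elements (2.72%), where the rule had left none in WT.

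Tcf4 was found at about as many elements as not. A Tcf4 peak overlapped 77.1% of the elements in Tcf4-tag replicate 1 and 51.6% in replicate 2, against 37.1% and 17.0% of the other distal regions. Regions merged from the peaks of both libraries spanned 30% or more of 2370 elements (48.1%, 95% Wilson interval 46.7 to 49.5) and of 14.1% of the other distal regions (13.5 to 14.7). All consensus regions, promoters included, had 36.3% by this measure, and 62.1% and 39.2% in replicates 1 and 2. Distal regions with H3K4me1 in both WT libraries and no H3K27ac in either, of which there were 3169, had Tcf4 at 9.06%. The order was thus the same in both libraries, although replicate 1 had more peaks.

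The active elements are wider and more open than the other distal regions, and Tcf4 rose with openness in each set. The 18211 distal regions were split into quartiles of accessibility, taken as the average of the authors' means of both genotypes. In the lowest quartile Tcf4 covered 16.0% of the active elements and 5.13% of the other distal regions, and in the highest 66.2% and 41.6%. The middle quartiles gave 22.0% against 8.62% and 35.4% against 15.4%, so the active elements were ahead in all 4. Of the active elements, 51.8% fell into the highest quartile, against 15.1% of the other distal regions. When only a peak within the central 500 bp was counted, which takes out the width, the shares were 76.2% and 50.9% in the Tcf4 libraries for active elements and 36.7% and 16.8% for the other distal regions.

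Elements with Tcf4 kept H3K27ac more often than those without. Both Tcf4 cKO libraries had H3K27ac at 67.6% of the 2370 elements with Tcf4 and at 53.4% of the 2554 without, and neither had it at 12.4% and 18.8%. The order held in each quartile of WT H3K27ac, from 58.0% against 46.0% in the lowest to 80.0% against 68.8% in the highest. It held in each Tcf4 cKO library, with 76% against 64.8% in replicate 1 and 63.2% against 56.6% in replicate 2 for the lowest quartile. Elements with Tcf4 were also more open, and the part of that in the difference was not tested.

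**Figure D3:**
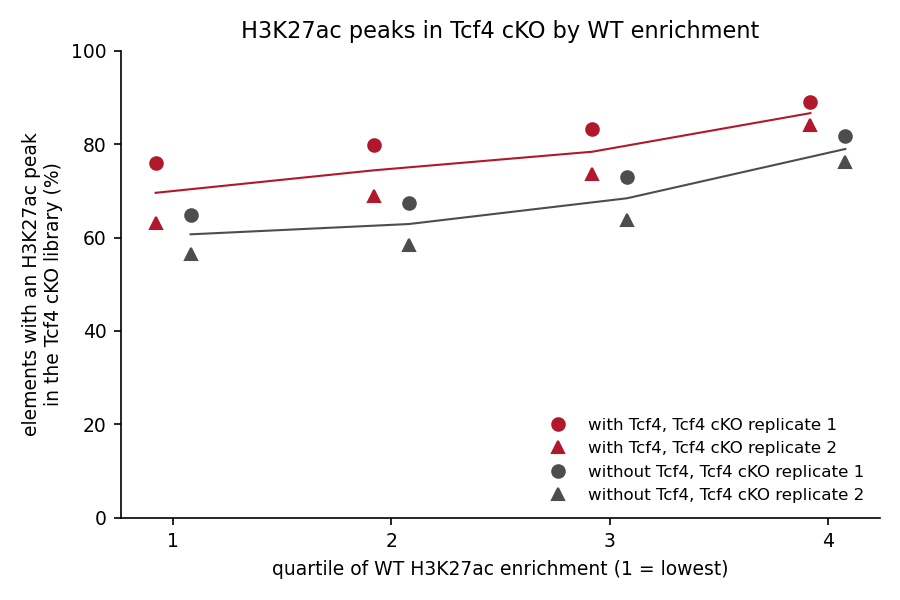
Share of active distal elements with an H3K27ac peak in each Tcf4 cKO library, in percent, by quartile of WT H3K27ac enrichment and by Tcf4 occupancy, with lines through the mean of 2 libraries. Elements with Tcf4 lie above those without in each quartile and library, and both rise to the highest quartile.

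The change of accessibility over the elements depended on the genotype in which they were chosen. The authors' means fell by 0.17 log2 units in Tcf4 cKO at the median element active in WT, against medians of −0.02 for the other distal regions and of −0.10 for all consensus regions. H3K27ac was required in WT only, so a measure that moves with H3K27ac is not independent of the choice, and these values are a description. Elements chosen by the same rule in Tcf4 cKO had a median of −0.05, those active in both genotypes of −0.11 and those active in either of −0.12. The authors' mean was lower by over 1 log2 unit at 311 elements active in WT (6.32%), against 4.18% of all regions and 7.01% of the other distal regions, and higher by over 1 at 48 (0.975%), against 2.87% and 6.05%. For the elements active in Tcf4 cKO the balance turned, with 84 lower (1.98%) and 182 higher (4.29%). These means are pooled over the libraries of a genotype, so they carry no error. Elements active in WT lay lower than the other distal regions in each quartile of accessibility, with medians of −0.33 against −0.01 in the lowest and −0.16 against −0.10 in the highest. ATAC-seq peaks were found in both WT libraries and in no Tcf4 cKO library at 22 elements (0.447%, against 1.02% of all regions) and in the opposite way at 1 element (0.0203%, against 0.56%).

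The peak enrichments of the 4 ATAC-seq libraries gave the same direction for the elements active in WT, and the same dependence on the choice. Centred on the median of all regions tested, the log2 enrichment of the median element was 0.14 and 0.15 in WT and 0.09 and 0.11 in Tcf4 cKO, so that the genotypes did not overlap. Both Tcf4 cKO libraries lay under both WT libraries at 1216 of 4829 elements (25.2%) and over them at 805 (16.7%), against 19.8% and 21.8% of all regions. The other distal regions had 25.3% and 24.7%. By limma over 30379 regions with a peak in all 4 libraries, 110 elements were called lower in Tcf4 cKO (2.28%, against 1.64% of all regions and 3.03% of the other distal regions) and 26 higher (0.538%, against 1.56% and 3.40%). Of the elements active in Tcf4 cKO, 36 were called lower (0.862%) and 73 higher (1.75%), and of those active in both genotypes 28 (0.981%) and 18 (0.631%). The balance of lower and higher calls thus turned with the genotype in which the elements were chosen, and nothing about a general loss of accessibility can be read from it. At an unadjusted p under 0.05, 701 elements differed (14.5%, against 14.2% of all regions and 24.3% of the other distal regions). The calls rested on both WT libraries and on the centring, since no element was called (0) without WT replicate 1, without WT replicate 2 or without centring. The other 95 elements lacked a peak in some library and were not tested, and these include 6 of the 10 elements with the largest changes of the authors' mean, described below.

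ATAC-seq and H3K27ac moved together. The median difference of the authors' ATAC means was −0.38 at the 773 elements without H3K27ac in Tcf4 cKO, −0.24 at the 1185 with it in 1 library and −0.11 at the 2966 with it in both. The ATAC-seq mean was lower in Tcf4 cKO at 80.6%, 72.5% and 62.8% of these elements. Elements active in Tcf4 cKO mirrored this, with a median of 0.35 at the 338 without H3K27ac in WT, of 0.09 at the 890 with it in 1 library and of −0.11 at the 3018 with it in both. With equal peak numbers the medians for elements active in WT were −0.39, −0.24 and −0.11. The order was the same in each quartile of WT H3K27ac, from −0.34, −0.18 and −0.11 in the lowest to −0.48, −0.33 and −0.12 in the highest.

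The ATAC-seq libraries showed the same order one by one. For elements without H3K27ac in Tcf4 cKO, the centred log2 enrichment of the median element was 0.03 and 0.08 in WT and −0.11 and −0.06 in Tcf4 cKO. For those with H3K27ac in both Tcf4 cKO libraries it was 0.19 and 0.18 in WT and 0.16 and 0.17 in Tcf4 cKO. The gap between genotypes was thus wider where H3K27ac was lost than where it was kept. Of the tested elements, 6.56% were called lower where neither Tcf4 cKO library had H3K27ac, 3.01% where 1 had it and 0.949% where both had it. All regions had 1.64% and the other distal regions 3.03%. Called higher were 0.140%, 0.516% and 0.644%, against 1.56% of all regions. These calls carry the dependence on both WT libraries given above.

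Tcf4 occupancy split the elements further. Occupancy was measured only in cells with Tcf4 and rose with openness, so it is not independent of WT accessibility and the split is a description. The part of openness in it was not tested. The median difference of the authors' ATAC means was −0.26 at elements with Tcf4 and −0.07 at those without, and the mean was lower in Tcf4 cKO at 79.4% and 57.3% of them. Elements with Tcf4 and no H3K27ac in Tcf4 cKO had the lowest median, −0.66 (294 elements), while those without Tcf4 that kept H3K27ac in both libraries were at 0.01 (1365 elements). The same split held in the other distal regions, with −0.34 with Tcf4 and 0.04 without, so it was not limited to active elements. In the centred enrichments, the median element with Tcf4 was at 0.26 and 0.23 in WT and at 0.16 and 0.19 in Tcf4 cKO, without overlap. The median element without Tcf4 was at 0.01 and 0.06 in WT and at 0.03 and 0.02 in Tcf4 cKO, with overlap. Of the tested elements with Tcf4, 2.62% were called lower and 0.129% higher, and of those without it 1.96% and 0.920%. All regions had 1.64% and 1.56%. Over all consensus regions the order of lower calls was the opposite, with 1.47% called lower with Tcf4 and 1.73% without, so these calls do not bear out the split.

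**Figure D4:**
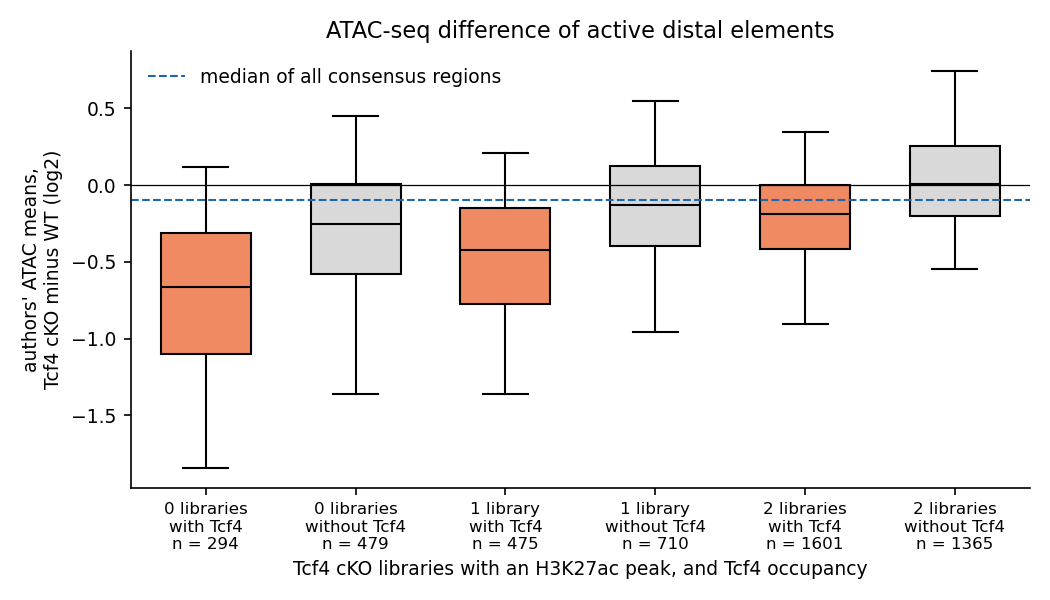
Difference of the authors' mean ATAC-seq signal, Tcf4 cKO minus WT in log2 units, for active distal elements by the number of Tcf4 cKO libraries with H3K27ac and by Tcf4 occupancy (boxes show the median and quartiles, whiskers the 5th and 95th percentiles). Medians run from −0.66 with Tcf4 and no H3K27ac in Tcf4 cKO to 0.01 without Tcf4 and with H3K27ac in both libraries, and the dashed line at −0.10 is the median of all regions.

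The sequence at the centre of the elements was searched for short motif cores, on both strands and within 75 bp of the centre. The E-box CANNTG, which includes the other E-boxes named here, occurred at 58.0% of the elements, 58.6% of the other distal regions and 49.2% of all consensus regions. CAGCTG, an E-box that E proteins and their partners bind, occurred at 17.95% of the elements (95% Wilson interval 16.9 to 19.0), 14.6% of the other distal regions and 12.9% of all regions. CAGATG occurred at 14.2%, 14.4% and 10.5%, and CACGTG at 2.64%, 2.56% and 2.98%. Of the E-box forms counted here, CAGCTG alone was thus more frequent at the active elements than at the other distal regions by more than the counting intervals. Other forms, such as the CACCTG of the Mog window, were not counted. The elements also had a higher median GC content in this window, 51.0% against 49.7%, and the part of that in the difference was not tested.

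Of the other cores, those of NFI and CTCF were less frequent within 75 bp of the centre at the active elements than at the other distal regions. TTGGCA, the core of the NFI factors of astrocytes, occurred at 10.4% of the elements, 12.9% of the other distal regions and 9.02% of all regions. A motif of CTCF, the insulator protein, occurred at 0.548%, 2.49% and 1.24%. The SOX cores ACAAAG and ACAATG were found at 28.1% of the elements and 26.97% of the other distal regions (19.4% of all regions), and the AP-1 site TGANTCA at 4.53% and 5.23% (3.56%). The homeodomain core TAATTA was found at 3.76% and 4.06% (2.53%) and the POU octamer ATTTGCAT at 1.46% and 1.32% (0.959%).

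Elements with CAGCTG were lower in Tcf4 cKO than those without. The 884 elements with the motif had a median difference of the authors' ATAC means of −0.32, against −0.14 for the other 4040, and 60.5% of them held Tcf4 against 45.4%. Among elements with Tcf4 the medians were −0.44 with CAGCTG (535 elements) and −0.22 without it, and among those without Tcf4 they were −0.17 (349 elements) and −0.05. The other distal regions were split the same way, with −0.51 and −0.29 with Tcf4 and −0.10 and 0.06 without Tcf4. Their shares called lower were 9.60% and 4.53% with Tcf4 and 4.44% and 2.29% without Tcf4. The pattern was thus not limited to active elements. In the centred enrichments, the median element with CAGCTG was at 0.14 and 0.15 in WT and at 0.01 and 0.04 in Tcf4 cKO, and without it at 0.14 and 0.15 in WT and 0.10 and 0.12 in Tcf4 cKO. Called lower were 46 of 849 tested elements with CAGCTG (5.42%) and 64 of 3980 without it (1.61%), against 1.64% of all regions. Elements with CAGCTG kept H3K27ac in both Tcf4 cKO libraries at 53.4%, against 61.7% of those without. Elements with the NFI core had a median of −0.16 and those without it of −0.17. Of 501 tested elements with the core, 1 was called lower (0.200%) and 6 higher (1.20%). Without the core 2.52% were called lower and 0.462% higher, and of all regions 1.64% and 1.56%. The share called higher with the core thus lay under that of all regions.

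The falls of the authors' ATAC mean were largest near Bmf, Nostrin, Pld1, F13a1 and Rnf8. The Bmf element had ATAC-seq enrichments of 6.91 and 7.57 in WT and no peak in Tcf4 cKO, and a difference of −4.64 log2 units of the authors' means. No H3K4me1 or Tcf4 peak overlapped it in any library, and its repeat content and mappability were not checked. The element near Nostrin, a regulator of endothelial nitric oxide synthase traffic, had 7.88 and 7.84 in WT and no peak in Tcf4 cKO, with −3.06, and both its H3K27ac and its H3K4me1 peaks were absent from Tcf4 cKO. Pld1, a phospholipase (−2.82), and F13a1, a coagulation factor subunit (−2.77), likewise had ATAC-seq peaks in WT only, and F13a1 held Tcf4 over 84.6% of its length. The element near Rnf8, a ubiquitin ligase of DNA repair (−2.63), had ATAC-seq enrichments of 8.75 and 10.8 in WT and a peak of 5.25 in Tcf4 cKO replicate 1 only. Tcf4 enrichment there was 8.0 and 9.15, and reproducible Tcf4 spanned 92.3% of its length. The Bmf, Nostrin and Pld1 elements had no cover by reproducible Tcf4. Of the 5, only Bmf had an H3K27ac peak in a Tcf4 cKO library.

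The rises were largest near Gm11449, Gli2, Sptbn1, Amer2 and Gm25454. The Gm11449 element had no ATAC-seq peak in WT and enrichments of 6.90 and 6.25 in Tcf4 cKO, with a difference of 3.26 log2 units. The Gli2 element rose from 6.10 and 5.0 to 8.02 and 8.94, a fitted log2 change of 0.71 ± 0.19 (SE, adjusted p = 0.0230 by limma). The elements of Sptbn1, a spectrin of the cell cortex (0.63 ± 0.18, adjusted p = 0.0330 by limma), and Amer2, a regulator of Wnt signalling (0.70 ± 0.19, adjusted p = 0.0251 by limma), were also called higher, and both had WT libraries under Tcf4 cKO libraries without overlap. They were chosen for a rise of means from these same libraries, which favours such a separation. Reproducible Tcf4 covered none of these 5 elements, and all but Gm11449 had H3K27ac in both Tcf4 cKO libraries.

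Among the called elements, the fits gave the largest falls near Gm26372, Atp6v1c1, Usp16, Gm23642 and Sipa1l2. The Gm26372 element, in an intron of the adenosine kinase gene Adk, had ATAC-seq enrichments of 8.12 and 10.4 in WT and of 4.20 and 3.70 in Tcf4 cKO, a log2 change of −1.13 ± 0.19 (SE, adjusted p = 0.00034 by limma). The element near Atp6v1c1, a subunit of the vacuolar proton pump, had 6.91 and 8.15 in WT and 3.83 and 2.99 in Tcf4 cKO (−1.06 ± 0.18). The Usp16 element, in an intron of a histone H2A deubiquitinase, had 10.3 and 8.14 in WT and 4.11 and 4.20 in Tcf4 cKO (−1.05 ± 0.19), with Tcf4 enrichments of 6.45 and 7.24. The genotypes did not overlap at any of these elements, nor at Gm23642 (−1.04 ± 0.20) and Sipa1l2, a regulator of Rap signalling (−1.04 ± 0.19). All were chosen for the largest fitted change in these same libraries, so the separation comes with the choice and is no further evidence. H3K27ac was absent from both Tcf4 cKO libraries at 4 of the 5 and present in replicate 1 at Atp6v1c1. Reproducible Tcf4 spanned 88.4% of the Usp16 element and 95.7% of the Gm23642 element. It covered none of the Gm26372, Atp6v1c1 and Sipa1l2 elements.

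The largest fitted rises lay near Gm10390, Asap1, Gm25454, Gm24724 and one intergenic element on chromosome 11 (chr11:16627603-16628751) without a named gene. The Gm10390 element had ATAC-seq enrichments of 4.67 and 6.92 in WT and of 10.2 and 9.47 in Tcf4 cKO (0.88 ± 0.18, adjusted p = 0.0026 by limma). The Asap1 element, in an intron of an Arf GTPase-activating protein, had 4.39 and 5.17 in WT and 7.53 and 8.99 in Tcf4 cKO (0.88 ± 0.19). The others had fitted changes between 0.78 and 0.85. The Gm10390 element had no H3K27ac peak in Tcf4 cKO although its accessibility was higher there. All 10 elements kept their direction under the alternatives tried, and all 10 lost the call without either WT library and without centring.

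**Figure D5:**
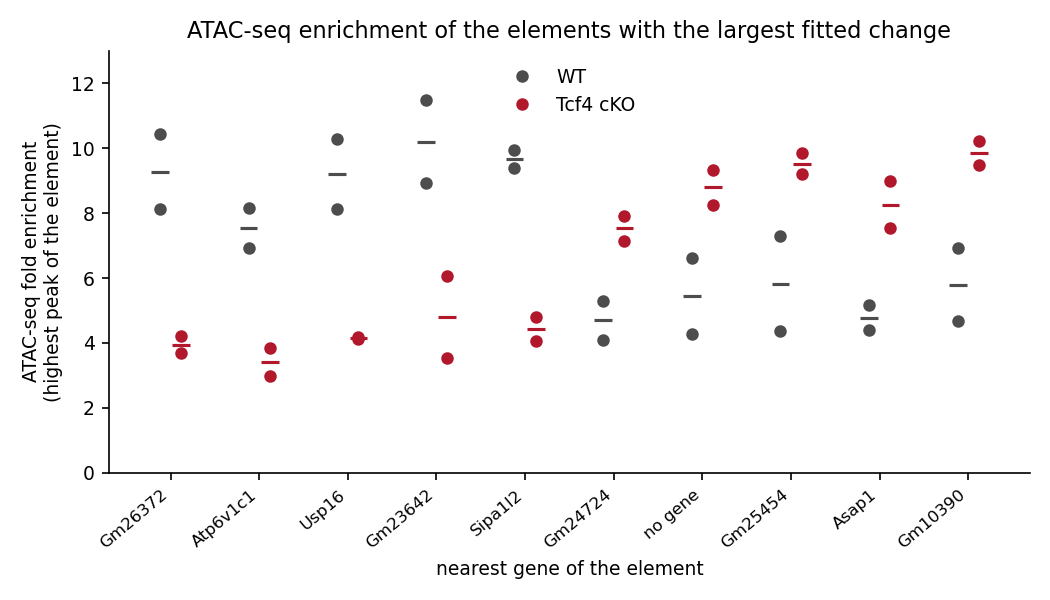
ATAC-seq fold enrichment over the local background of the 10 elements with the largest fitted change each way, by nearest gene, with one point per library and the mean of 2 libraries as a line. WT lies above Tcf4 cKO without overlap at the 5 elements on the left and below it at the 5 on the right. The elements were chosen for this change, which favours such a separation.

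By the authors' nearest gene, none of the genes with most elements was on the marker lists. Opcml, a cell adhesion molecule of neurons, had 8 elements, of which 4 held Tcf4 and 5 kept H3K27ac in both Tcf4 cKO libraries. Gm26669 had 7, and Elmo1, an activator of Rac signalling, and Pabpc6 had 6 each. The median difference of the authors' ATAC means was −0.24 at Opcml, −0.35 at Gm26669, −0.48 at Elmo1 and −0.05 at Pabpc6, where all consensus regions were at −0.10. The next place was shared by the genes with 5 elements, of which Apoo-ps came first in alphabetical order (0.09). When elements were assigned to the nearest protein-coding gene of GENCODE instead, an alternative chosen after seeing the data, Zfp608 came first with 13 elements and a median of −0.41, lower in Tcf4 cKO at 11 of them, and Tcf7l2, on the OPC list, had 7 with a median of 0.03.

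Elements lay near marker genes of each cell type examined. Of 17 OPC genes 8 had an element (11 elements), of 14 myelin genes 6 (9 elements), of 20 astrocyte genes 5 (6 elements) and of 20 interneuron genes 8 (13 elements). Projection neuron genes had 2 elements over 11 genes, microglia genes 1 over 9, endothelial and mural genes 3 over 10, including the Flt1 element described above, and E protein and Id genes 2 over 7. Active elements made up 26.8% of the distal regions near OPC genes, 37.5% near myelin genes, 14.0% near astrocyte genes and 32.5% near interneuron genes. The shares were 18.8% near endothelial and mural genes, 14.3% near microglia genes, 11.1% near projection neuron genes and 11.8% near E protein and Id genes, and the share over all distal regions was 27.04%. The share near astrocyte genes was thus within the range of the markers of other cell types. By nearest protein-coding gene the OPC list rose to 29 elements and the E protein and Id list to 12, while the myelin list had 10, the astrocyte list 11 and the interneuron list 16. Of all active elements, 68.0% were lower in Tcf4 cKO in the authors' ATAC mean, 48.1% held Tcf4 and 60.2% kept H3K27ac in both Tcf4 cKO libraries, and the counts of the short lists below are to be read against these shares.

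OPC elements held Tcf4 at 9 of 11 and kept H3K27ac in both Tcf4 cKO libraries at 8. Their median difference of the authors' ATAC means was −0.16 and none was called in either direction. Tcf7l2 had 4 elements. The 2 nearest its start site, at chr19:55756453-55757316 and chr19:55951250-55952094, had WT H3K27ac of 3.63 and 4.50 and of 4.10 and 3.44 and no H3K27ac peak in Tcf4 cKO, with differences of −0.59 and −0.73 and Tcf4 over 99.3% and 74.1% of their length. The 2 farther ones kept H3K27ac in both libraries and were at 0.03 and 0.24, so the 4 elements of one gene differed. The first of them, shown above with its CACGTG sites, had WT ATAC-seq enrichments of 10.9 and 12.1 and Tcf4 cKO values of 9.84 and 11.3.

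The other OPC genes named by the rule had 1 element each. The Ptprz1 element, 40305 bp from the start of this receptor phosphatase gene, had H3K27ac of 4.79 and 4.74 in WT and of 4.97 and 3.26 in Tcf4 cKO, so the genotypes overlapped. The Neu4 element, near a sialidase of oligodendroglia, had ATAC-seq of 10.6 and 10.2 in WT and of 12.2 and 11.3 in Tcf4 cKO (0.27 ± 0.13, adjusted p = 0.316 by limma). The Olig2 element, 7263 bp from the start of this bHLH gene of the oligodendrocyte lineage, had low H3K27ac of 2.69 and 2.89 in WT and of 2.87 and 2.48 in Tcf4 cKO, and Tcf4 over 94.0% of its length. Its authors' ATAC mean was lower by 0.41 log2 units in Tcf4 cKO, while its peak enrichment of 6.09 and 6.43 in WT and 5.46 and 6.82 in Tcf4 cKO overlapped.

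Myelin elements were lower in Tcf4 cKO in the authors' ATAC mean at 8 of 9, with a median of −0.26 and 6 of 9 holding Tcf4. Ugt8a, an enzyme of galactolipid synthesis, had 3 elements at −0.26, −0.78 and −0.91, and 1 of these kept H3K27ac in both Tcf4 cKO libraries. Fa2h, which hydroxylates myelin fatty acids, had 2 elements at −0.00 and −0.59, both with H3K27ac in all 4 libraries. The Mog element had H3K27ac of 6.53 and 7.25 in WT and of 6.65 and 7.37 in Tcf4 cKO, with overlap. The Myrf element, in an intron of the gene for a transcription factor that drives myelin genes, had H3K27ac of 2.75 and 3.15 in WT and no peak in Tcf4 cKO. Its ATAC-seq enrichment was 6.80 and 6.30 in WT and 4.93 and 3.73 in Tcf4 cKO, without overlap, and its fitted change of −0.52 ± 0.19 did not pass the test (adjusted p = 0.115 by limma). None of the myelin elements was called.

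Astrocyte elements were not lower in the authors' ATAC mean in Tcf4 cKO at any of 6, with a median of 0.26, and none was called. By nearest protein-coding gene, 4 of 11 were lower and the median was 0.02, so the pattern depended on the assignment. Slc1a3 had 2 elements at 0.38 and 0.23. The one shown above had ATAC-seq enrichments of 6.49 and 7.04 in WT and of 7.14 and 6.23 in Tcf4 cKO, which overlapped. The elements of Gfap, an intermediate filament protein of astrocytes (0.30), and Aldh1l1, an enzyme of folate metabolism (0.30), had H3K27ac in both and in 1 of the Tcf4 cKO libraries. Peak enrichment at Gfap was 6.95 and 7.84 in WT and 6.08 and 6.04 in Tcf4 cKO, so it went opposite to the authors' mean. The second Slc1a3 element, in an intron of the gene, did likewise, with 8.28 and 7.98 in WT and 5.64 and 6.40 in Tcf4 cKO. The direction at astrocyte elements thus depended on the measure. Nfia and Nfix, NFI factors that act in astrocyte formation, had 1 element each, with differences of 0.02 and 0.02 of the authors' means and H3K27ac in 1 Tcf4 cKO library. Before centring, peak enrichment was lower in Tcf4 cKO without overlap at both, at Nfia with 7.56 and 8.83 in WT and 5.79 and 7.22 in Tcf4 cKO. Neither was called (adjusted p = 0.639 at Nfia and 0.268 at Nfix by limma). Over all tested active elements the uncentred medians were 8.41 and 9.28 in WT and 8.01 and 8.06 in Tcf4 cKO. After centring, a separation in this direction was seen at 25.2% of the active elements and 19.8% of all regions, so it is common. Fgfr3 had no active distal element by either assignment, and Nfib had none by the authors' and 1 by nearest protein-coding gene.

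Interneuron elements held Tcf4 at 10 of 13 and had a median difference of −0.17, with 1 called higher. That element lay near Nkx2-1, the transcription factor whose promoter drives the Cre, with ATAC-seq of 3.34 and 3.24 in WT and of 5.04 and 4.22 in Tcf4 cKO (0.58 ± 0.15, adjusted p = 0.0164 by limma), while its authors' mean went the other way (−0.26). Sox6, a transcription factor of interneurons from the medial ganglionic eminence, had 4 elements, at −0.46, 0.28, −0.17 and −0.89, all with H3K27ac in both Tcf4 cKO libraries. The last of these had ATAC-seq of 10.6 and 10.2 in WT and of 7.91 and 6.20 in Tcf4 cKO (−0.48 ± 0.17, adjusted p = 0.103 by limma). Sst, the gene of somatostatin, had 2 elements at 0.07 and −0.05, both with Tcf4 and H3K27ac in all 4 libraries. The Maf element shown above had H3K27ac of 3.85 and 7.21 in WT and a peak of 3.27 in Tcf4 cKO replicate 1 only.

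Elements near genes of other cell types were few. Rorb (0.72) and Cux2 (0.27), transcription factors of cortical projection neurons, had 1 each, both with H3K27ac in all 4 libraries. Spi1, the myeloid transcription factor, had 1, with ATAC-seq of 4.81 and 5.03 in WT and of 6.91 and 5.70 in Tcf4 cKO. It was not called (adjusted p = 0.220 by limma), and its authors' mean went the other way (−0.16). Of the endothelial genes, Slco1c1, a thyroid hormone transporter of brain vessels, had an element at −0.99 with H3K27ac of 4.96 and 5.48 in WT and of 4.10 and 4.02 in Tcf4 cKO. The Pecam1 element had H3K27ac of 3.59 and 2.91 in WT and none in Tcf4 cKO. Id4, an inhibitor of E proteins, had an element with H3K27ac of 7.28 and 5.80 in WT and of 6.76 and 5.93 in Tcf4 cKO, and Tcf3, itself an E protein, had one with 2.71 and 3.61 in WT and 3.28 and 2.89 in Tcf4 cKO, both with overlap.

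By nearest protein-coding gene, 2 of the 12 E protein and Id elements were called lower, against 2.28% of active elements and 1.64% of all regions. By the authors' annotation the list had 2 elements, and none was called. Both called elements lay nearest Tcf4 itself, the gene deleted in Tcf4 cKO, and the part of the deletion in these calls was not tested. They are named here because the count is small, after their values were seen. The one 14142 bp from a Tcf4 start site, given as Gm24845 in the authors' annotation, had ATAC-seq of 7.68 and 8.33 in WT and of 4.31 and 4.93 in Tcf4 cKO (−0.70 ± 0.19, adjusted p = 0.0221 by limma). The one 279813 bp away, given as Mir145b, had 8.80 and 8.87 in WT and 3.68 and 5.28 in Tcf4 cKO (−0.91 ± 0.19, adjusted p = 0.00323 by limma). The genotypes did not overlap at either, which the choice of called elements favours, and like the other calls both rest on both WT libraries and on the centring.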

How the data were processed

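ATAC-seq and Cut&Tag peak lists of sorted Nkx2.1-lineage cells were analysed, and groups and replicate numbers were read from the labels. The single-cell RNA-seq samples were not analysed here. The authors aligned reads to mm10 with Bowtie2 and ran MACS2 library by library. The deposited lists give a fold enrichment (a ratio over the local background) and a −log10 q-value per peak. The authors' deposited consensus table holds, per genotype, a mean of log2 normalized reads from DiffBind and DESeq2. Its fold change, p-value and FDR and the footprint table, which hold the authors' own comparisons, were not used. Coordinates are GRCm38, with GENCODE M21 as annotation. ATAC-seq peaks were named in another form in the WT than in the Tcf4 cKO lists, so the processing run and the genotype cannot be told apart.

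The members, lists and tests were chosen with earlier results of these data known. A library had a mark where a peak overlapped a region by at least 1 bp. The highest fold enrichment per region was taken to log2, centred on each library's median and fitted with limma 3.58.1 (eBayes with trend) in R 4.3.3, without a replicate block, over regions with a peak in all 4 libraries, with Benjamini-Hochberg adjustment and a threshold of 0.05. On simulated data with 200 regions changed by 1 log2 unit, 200 were recovered with 5 false calls over 30379 regions (ATAC-seq) and 200 with 9 over 14029 (H3K4me1). Shares carry 95% Wilson intervals, which cover counting over regions and not animals. Overlaps, motif searches and figures used Python 3.11.15, numpy 2.4.6, pandas 2.3.3, scipy 1.17.1, pysam 0.24.0 and matplotlib 3.10.9. Nearest genes are those of the authors' annotation. Named are the 5 elements with the highest WT H3K27ac, the 5 with the largest rise and the 5 with the largest fall of the authors' ATAC mean (given 2 ATAC-seq peaks in the genotype with the higher mean), the 5 called with the largest change each way, the 5 genes with most elements, up to 3 genes per marker list, and Olig2, Myrf, Tcf7l2, Fgfr3, Nfia, Nfib and Nfix. One gene that this rule names is not reported here. Other elements were named only as examples of the threshold or of another gene assignment, chosen after their values were seen. Alternatives covered overlap, peak thresholds, equal peak numbers, scaling, filters, the replicate block and each left-out library.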

Additional observations from a re-analysis of the deposited data

How the results depend on the processing

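The number of active distal elements was 2355 with H3K27ac over at least 50% of the region, 1579 when peaks needed a −log10 q of 5, and 6379 to 7676 with 1 WT H3K27ac library left out. The share with H3K27ac in both Tcf4 cKO libraries was 30.4% with a cover of 50%, 23.6% at a −log10 q of at least 5, and 67.9% to 76.7% with 1 library left out. The share with H3K4me1 in both libraries was 22.9% (WT) and 36.6% (Tcf4 cKO) at a −log10 q of at least 5, and 79.2% to 84.4% and 87.3% to 88.9% with 1 library left out. In Tcf4 cKO it was also 79.2% in the central 500 bp and 70.4% with equal peak numbers, both chosen after seeing the data. The share with Tcf4 was 28.9% at a −log10 q of at least 5, and 51.6% to 77.1% with 1 library left out. The share with CAGCTG was 31.0% within 150 bp of the centre and 59.8% over the whole region. Centring moved the median ATAC difference to −0.071. With the rule applied in Tcf4 cKO or in either genotype, chosen after seeing the data, the median was −0.054 and −0.120, and elements called were 36 and 118 lower and 73 and 81 higher.

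Of all regions, ATAC-seq called 970, and 0 without centring, 636 after quantile normalization, 545 with missing peaks set at an enrichment of 1, and 0 to 779 with 1 library left out (3 without WT replicate 1 and 0 without WT replicate 2). Elements called lower were then 0 without centring, 30 with missing peaks set at 1, and 0 to 98 with 1 library left out. Elements called higher were 0, 1 and 0 to 15, and 13 after quantile normalization. In H3K4me1, 3 regions were called without centring, 0 to 1 with 1 library left out, and 2072 with missing peaks set at 1, of which 44 elements were lower and 135 higher, where the peak numbers of the genotypes differ as given above. Deviations of libraries with the same replicate number did not correlate (−0.0069 in ATAC-seq and 0.0092 in H3K4me1), so no strong effect shared by number was seen. Whether libraries of the same number were prepared together cannot be read from this. With the replicate block, ATAC-seq called 1093 regions, and H3K4me1 called 5, of which 1 element was lower. The 10 named called elements kept their direction in every refit and their call in 32 of 50 without and 17 of 40 with a left-out library. Where a lone library stood for a genotype, it was assumed to vary like the others. The depth of the libraries is unknown.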
